A study of Homo sapiens with 12 samples.

Results

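Leukaemia inhibitory factor (LIF), its receptor chains and a set of inflammatory cytokines were followed across 4 treatments of small cell lung cancer spheroids. The set holds 10 of the 60649 genes counted: the cytokines LIF, IL6, IL11 and CLCF1, the receptor chains LIFR and IL6ST, the chemokines CXCL8, CXCL1 and CXCL2, and the growth factor CSF1. The set was built around LIF, which was selected on its read counts because they rose with each drug alone. LIF is therefore described without a test, and calls are counted among the 9 other members. SBC3, an established human small cell lung cancer line, was grown as spheroids. The 4 groups of 3 libraries were control, teriflunomide, lurbinectedin, and both drugs together (the combination). Teriflunomide blocks DHODH, an enzyme cells need to make pyrimidines. Lurbinectedin binds DNA and stops transcription. The series asks how teriflunomide acts together with chemotherapy in this cancer. All libraries come from 1 cell line with no genetic change named in the labels. The sources used here give neither dose nor duration of treatment. Nothing says whether the 3 libraries of a group came from separate cultures, so p-values measure the spread between these libraries, which may be technical.

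Cytokines of the interleukin-6 family share the signalling chain gp130, encoded by IL6ST. LIF binds LIFR, which pairs with gp130, whereas IL6 and IL11 first bind their own receptors, IL6R and IL11RA, and then engage gp130. The complexes activate JAK kinases and the transcription factor STAT3, and SOCS proteins feed back to dampen the signal. CXCL8, CXCL1 and CXCL2 are chemokines that draw neutrophils through the receptor CXCR2, and CSF1 supports the survival and growth of macrophages. Many of these genes are induced by stress through NF-kB and AP-1, and their mRNAs are often short-lived because of AU-rich stretches in the 3′ untranslated region.

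The members with the letters of an NF-kB motif, GGANTTTCC, in the RefSeq promoter window were CXCL8, CXCL1, CXCL2 and IL6. The window runs from 250 bases before to 50 after the start set for each RefSeq promoter (GRCh38.p14), and such windows were found for 7 of the 10 members. For LIF, CLCF1 and CSF1 no window was found. The first base of the motif lay at -91 in CXCL8, -78 in CXCL1, -77 in CXCL2 and -72 in IL6, counted from that promoter start. For IL6 and CXCL8 this is not the first base of the counted gene. The same letters, on either strand, occur in 1.64% of 35116 promoter windows. The AP-1 letters TGANTCA were found in CXCL8 at -137 and in IL11 at -96, and occur in 7.71% of windows. The C/EBP letters TTGCNNAA were found in IL6, CXCL2 and a second LIFR promoter, and the STAT letters TTCNNNGAA in 2 of 3 LIFR promoters. These occur in 10.5% and 7.66% of windows. The CRE letters TGACGTCA were in no member's window and occur in 1.85% of windows, and none of the 5 motifs searched on both strands was in that of IL6ST. The TATA box letters TATAAA, searched on the given strand only, were found in CXCL8 and LIFR and occur in 7.33% of windows. Among the 16332 windows of genes that passed the expression filter, the shares were 1.63% (NF-kB), 5.39% (AP-1) and 7.46% (C/EBP). They were 6.25% (STAT), 2.89% (CRE) and 3.94% (TATA box). The stretches of 160 bases below, 5′ to 3′, are shown because these genes rose with lurbinectedin, and capitals mark the motif letters named above. A match describes the letters only, not a bound site.
CXCL8 (chr4:73740409-73740568, plus strand): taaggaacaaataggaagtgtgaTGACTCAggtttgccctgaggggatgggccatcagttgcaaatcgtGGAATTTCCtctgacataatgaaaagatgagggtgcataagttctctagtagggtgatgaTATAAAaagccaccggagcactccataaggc
CXCL1 (chr4:73869233-73869392, plus strand): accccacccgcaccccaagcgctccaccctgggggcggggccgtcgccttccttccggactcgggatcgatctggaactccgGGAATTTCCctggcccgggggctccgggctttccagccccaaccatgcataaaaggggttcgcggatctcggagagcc
CXCL2 (chr4:74099196-74099355, minus strand): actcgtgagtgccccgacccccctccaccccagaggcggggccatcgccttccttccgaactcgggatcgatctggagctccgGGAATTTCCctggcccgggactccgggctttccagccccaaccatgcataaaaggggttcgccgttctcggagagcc
IL6 (chr7:22727040-22727199, plus strand): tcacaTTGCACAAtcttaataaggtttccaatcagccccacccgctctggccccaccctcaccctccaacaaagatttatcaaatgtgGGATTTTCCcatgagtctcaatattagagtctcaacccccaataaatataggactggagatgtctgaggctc
IL11 (chr19:55370464-55370623, minus strand): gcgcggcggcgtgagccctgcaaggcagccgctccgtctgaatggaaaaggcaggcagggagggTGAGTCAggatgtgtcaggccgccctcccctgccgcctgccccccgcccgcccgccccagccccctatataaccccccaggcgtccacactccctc

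CXCL1 and CXCL2 are related genes on chromosome 4. Over whole transcripts, 5.73% of CXCL1 windows of 50 bases and 9.24% of CXCL2 windows also occurred in another of the CXCL1, CXCL2 and CXCL3 transcripts. Reads from those stretches cannot be assigned with certainty, so these genes' counts carry that uncertainty.

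The cytokine mRNAs were also searched for the AU-rich pentamer ATTTA in the 3′ untranslated region of 1 GENCODE 29 transcript each. CXCL2 held 13.9 pentamers per kilobase, more than 99.5% of 12536 genes, whose median was 1.6. IL6 held 14.0 per kilobase, CXCL8 7.19, CXCL1 7.08, IL11 5.56 and CLCF1 4.13. The receptor chains LIFR and IL6ST held 4.37 and 3.84. LIF, at 2.18 per kilobase, lay above 60% of genes, and CSF1, the lowest member at 1.86, above 54.2%. The longer AU-rich letters TTATTTATT, present in 8.57% of genes, were found at 6 places in IL11, 5 in CXCL2, 3 in CXCL1, 2 each in LIF and CLCF1, and 1 each in CXCL8 and LIFR. IL6, IL6ST and CSF1 held none. The densest site of 30 bases is shown for the 6 secreted factors with that nonamer, with ATTTA in capitals.
LIF (chr22:30240522-30240551, minus strand): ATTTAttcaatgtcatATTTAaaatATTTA
IL11 (chr19:55365942-55365971, minus strand): cagatcttATTTATTTATTTAtttcagtac
CLCF1 (chr11:67364229-67364258, minus strand): atATTTATTTAtttggagatgttATTTAtt
CXCL8 (chr4:73743111-73743140, plus strand): cctATTTAttATTTAtgtATTTATTTAagc
CXCL1 (chr4:73870674-73870703, plus strand): agtcttctATTTATTTATTTAttcattagt
CXCL2 (chr4:74097585-74097614, minus strand): ttctATTTATTTATTTATTTATTTAtttgt

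Total counts ran from 23206414 to 33222162 per library. Teriflunomide replicate 3 and combination replicate 2 stood apart, with 22.6% and 24.9% of counts on mitochondrial genes. The shares were 8.42% and 8.43% in the other teriflunomide libraries and 13.1% and 14.6% in the other combination libraries. Control shares were 6.26% to 7.17% and lurbinectedin shares 13.8% to 17%. Of the 8 small cell and neuroendocrine markers, 4 passed the expression filter, among them NEUROD1 and SYP. NEUROD1 stood at 4.03 ± 0.317 CPM (SD, n = 3) in control and 1.62 ± 0.11 with lurbinectedin, and SYP at 16.8 ± 0.765 and 30.9 ± 1.42 CPM. INSM1, a defining marker of the labelled cell type, had no counts. The epithelial keratin KRT8 stood at 236 to 252 CPM in control, 196 to 306 with teriflunomide, 400 to 433 with lurbinectedin and 373 to 444 with both drugs, whereas EPCAM reached 0.0638 CPM. The 6 fibroblast markers summed to 466 to 550 CPM without lurbinectedin and 187 to 227 CPM with it, through the collagens COL1A1 and COL1A2, with LUM at 0. The 7 leukocyte markers summed to 0.0293 to 0.302 CPM without lurbinectedin and to 1.7 to 2.58 CPM with it, mostly CD14. CD3E and MS4A1 had no counts, and the 4 endothelial markers summed to 0.629 CPM at most. The part of these markers and of the mitochondrial share in the changes below was not tested.

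Most of the secreted factors rose with lurbinectedin, alone or in the combination, whereas teriflunomide alone changed few of them. Values are CPM, counts normalised to the TMM-scaled size of each library, and calls are genes with a Benjamini-Hochberg adjusted p under 0.05 over 16683 genes in the quasi-likelihood test of edgeR. IL6 passed the expression filter only through libraries with lurbinectedin, so its difference was favoured in advance, and it is left out of the counts with that drug. With lurbinectedin, 6 of the 8 remaining members rose (36.0% of all genes were called higher) and 1, LIFR, fell (35.7% of all genes were called lower). Higher calls were 50.2% of all calls with lurbinectedin, and 39.2% with library size as the only scaling, under which the median of all genes was -0.18. With the combination the same numbers rose and fell, against 34.1% and 34.4% of all genes. With teriflunomide, IL11 and IL6ST rose (3.88% of all genes were called higher) and no member fell (2.13% were called lower). Between the combination and lurbinectedin no member was called, nor was any of the 16683 genes (0%). At an unadjusted p under 0.05 there were 2 members, LIFR and IL6ST, and 2599 genes, and DESeq2 called no member. Between the combination and teriflunomide, 6 of the 8 members were higher (35.2% of all genes) and LIFR was lower (35.8% of all genes). The comparisons with control share the same control libraries. In RNA from whole spheroids, a change in the number of cells that express a gene and a change in RNA per cell cannot be told apart. CPM are relative to the other RNA counted in a library. Each rise or fall given here is thus one of share, and absolute amounts cannot be read from it.

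**Figure D1:**
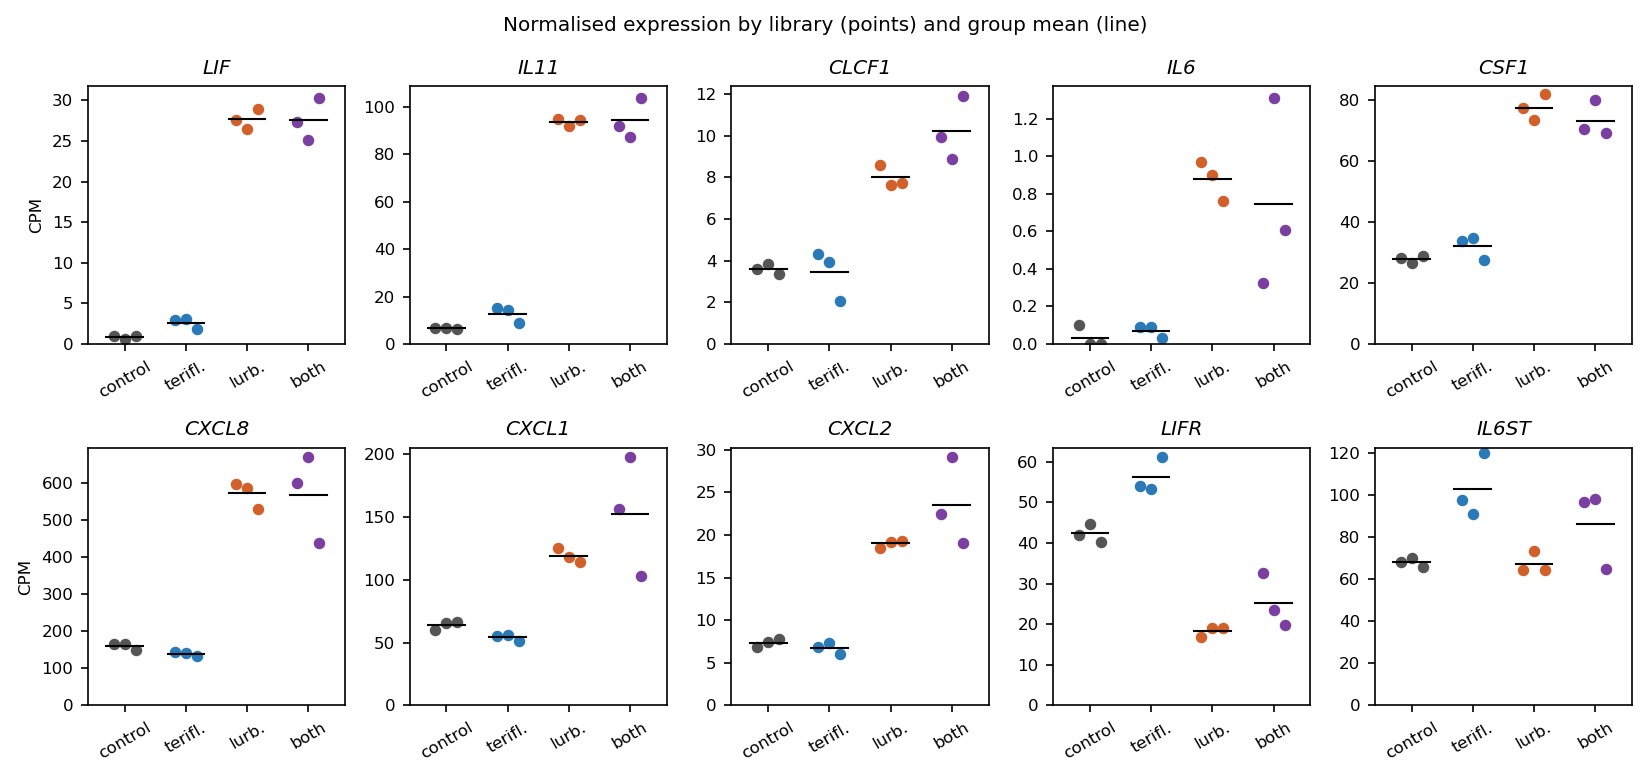
CPM (vertical axes, linear and starting at 0) of the 10 genes in each of 12 libraries, by treatment group. Points are libraries in replicate order, both is the combination, and lines are group means of 3 libraries; LIF and IL11 stand far above control in all 6 libraries with lurbinectedin, and LIFR stands below.

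LIF was nearly silent in control spheroids. The gene had 31, 17 and 31 counts in the control libraries, which is 1.04, 0.568 and 0.926 CPM. With teriflunomide LIF stood at 2.96, 3.08 and 1.87 CPM, so that every treated library lay above every control library. With lurbinectedin it reached 27.6, 26.5 and 28.9 CPM, and with the combination 27.3, 25.1 and 30.3 CPM. These last groups overlapped each other and lay far above teriflunomide. The group means were 0.844 ± 0.246 CPM (SD, n = 3) in control, 2.64 ± 0.666 under teriflunomide, 27.6 ± 1.2 under lurbinectedin and 27.6 ± 2.59 under both drugs. As a description, the log2 fold change against control was 1.64 (SE 0.232) under teriflunomide and 5.02 (SE 0.221) under lurbinectedin as well as under both drugs. Teriflunomide replicate 3, the library with 22.6% mitochondrial counts, held the lowest LIF level of its group, and without it the teriflunomide value was 1.83.

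Between the combination and lurbinectedin the difference in LIF on the log2 scale was 0.00 (SE 0.168). The combination lay above teriflunomide by 3.38 on the log2 scale (SE 0.193), a fold of 10.4. The interaction, which subtracts the teriflunomide effect without lurbinectedin from that with it, was -1.65 for LIF (SE 0.288). None of these values is tested, because the libraries with each drug alone were used to choose LIF. LIF overlaps the antisense genes LIF-AS1 and LIF-AS2 over 2.22% and 2.14% of its exonic bases, and these had 1 and 131 counts in all 12 libraries against 4677 for LIF. Strand use in the counting is not given in the sources used here, so reads from these stretches cannot be separated.

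IL11, which signals through IL11RA and gp130, followed LIF most closely among the members. IL11 stood at 6.87, 6.85 and 6.12 CPM in control and at 15.3, 14.4 and 8.79 CPM with teriflunomide. It reached 94.9, 91.8 and 94.6 CPM with lurbinectedin and 92.2, 87.5 and 104 CPM with the combination. No treated library overlapped control. The rise of IL11 was 0.96 on the log2 scale with teriflunomide (SE 0.172; edgeR, adjusted p = 0.00699) and 3.82 with lurbinectedin (SE 0.182; edgeR, adjusted p = 5.48e-10). With the combination it was 3.84 (edgeR, adjusted p = 6.98e-10), and the combination differed from lurbinectedin by 0.01 (95% interval -0.30 to 0.32). Teriflunomide replicate 3 again held the lowest IL11 level of its group. The call with teriflunomide was lost without control replicate 3 (edgeR, adjusted p = 0.0515), when only total counts scaled the libraries (0.0872) and with only the groups compared in the fit (0.0797). In contrast, without teriflunomide replicate 3 the rise was 1.16 (edgeR, adjusted p = 4.38e-06).

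The interaction for IL11 was -0.94 (SE 0.234) and did not pass (edgeR, adjusted p = 0.16). None of the 9 members passed, and 0.258% of all genes did. At an unadjusted p under 0.05 the interaction held for IL11 and CXCL1 among the members and for 1726 of all genes. Without teriflunomide replicate 3, IL11 passed at -1.15 (edgeR, adjusted p = 0.000182), and on all 12 libraries it passed with DESeq2 (adjusted p = 0.0248) and without the expression filter (edgeR, adjusted p = 0.00762).

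CLCF1, a ligand that acts through CNTFR, LIFR and gp130, rose with lurbinectedin, alone and in the combination. It stood at 3.62, 3.84 and 3.38 CPM in control and at 4.34, 3.95 and 2.04 CPM with teriflunomide, which straddled control. With lurbinectedin it was 8.62, 7.66 and 7.74 CPM and with the combination 9.96, 8.89 and 11.9 CPM. CLCF1 rose by 1.15 with lurbinectedin (SE 0.22; edgeR, adjusted p = 0.000336) and by 1.51 with the combination (edgeR, adjusted p = 3.09e-05). Every combination library lay above every lurbinectedin library, but the difference of 0.36 was not called (95% interval -0.05 to 0.77; edgeR, adjusted p = 0.425).

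IL6 had very few counts and its size of change is poorly fixed. The control libraries held 3, 0 and 0 counts and the teriflunomide libraries 3, 3 and 1. The lurbinectedin libraries held 20, 23 and 21 counts and the combination libraries 9, 31 and 19, so that IL6 passed the expression filter only through the groups with lurbinectedin. The ratio of summed counts to control, scaled for library size, was 27.0 with lurbinectedin (95% exact interval 8.82 to 134) and 22.2 with the combination (7.23 to 111). With teriflunomide it was 2.25 (0.513 to 13.5). These intervals cover counting error only. No test is given for IL6 with lurbinectedin, since the filter admitted it only through those libraries, and IL6 drops out under a filter of 1 CPM in 3 libraries. The antisense gene IL6-AS1 covers 20.7% of the IL6 exonic bases and had no counts.

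**Figure D2:**
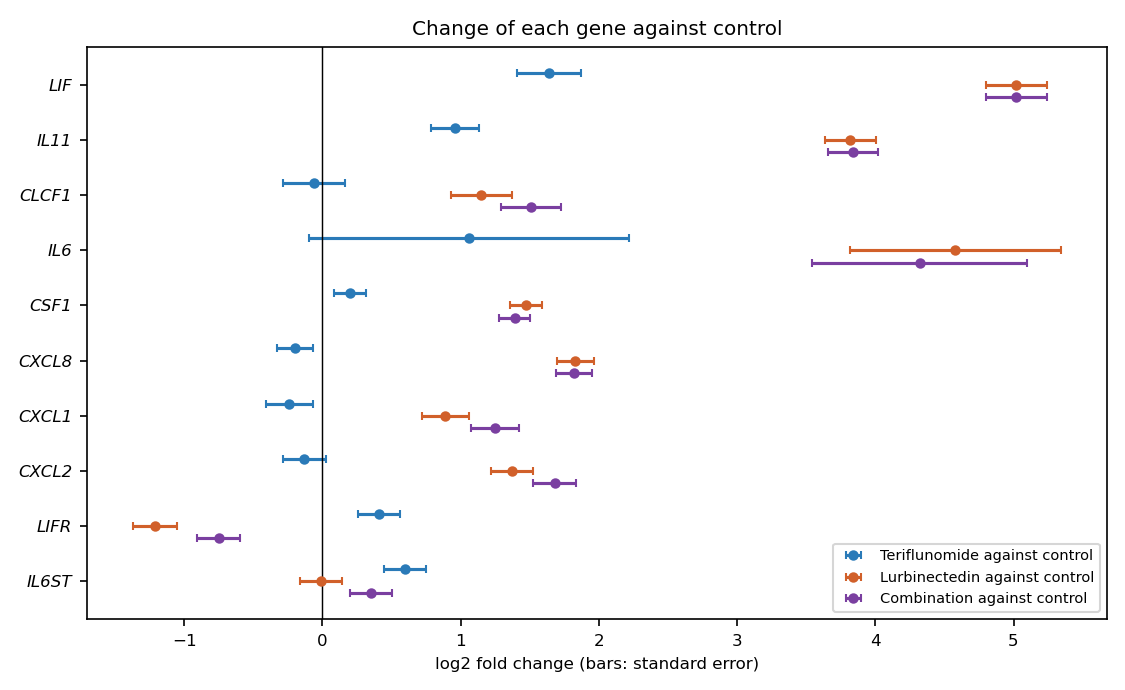
log2 fold change against control (horizontal axis) of the 10 genes with teriflunomide, lurbinectedin and the combination, with standard errors as bars. LIF, IL11 and IL6 lie farthest to the right with lurbinectedin (5.02, 3.82 and 4.58), LIFR lies at -1.21, and IL6 has the widest bars.

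The receptor chains showed other patterns than the ligands. LIFR, the chain that binds LIF, stood at 42, 44.8 and 40.3 CPM in control and at 16.9, 19.1 and 19.1 CPM with lurbinectedin, with no overlap. It was 32.5, 23.6 and 19.7 CPM with the combination and 54.1, 53.2 and 61.3 CPM with teriflunomide. LIFR fell by 1.21 on the log2 scale with lurbinectedin (SE 0.158; edgeR, adjusted p = 1.06e-05) and by 0.75 with the combination (SE 0.156; edgeR, adjusted p = 0.00075). All teriflunomide libraries lay above all control libraries, yet the difference of 0.41 was not called (SE 0.154; edgeR, adjusted p = 0.125). Every combination library lay above every lurbinectedin library, by 0.46 on average (95% interval 0.15 to 0.77), which also was not called (edgeR, adjusted p = 0.213).

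IL6ST, which encodes gp130, was called with teriflunomide and not with lurbinectedin. It stood at 68.3, 70.2 and 65.8 CPM in control and at 64.6, 73.3 and 64.7 CPM with lurbinectedin, a difference of -0.01 (95% interval -0.31 to 0.29; edgeR, adjusted p = 0.95). With teriflunomide it was 97.7, 91.1 and 120 CPM, above every control library. That rise was 0.60 (SE 0.151; edgeR, adjusted p = 0.0357), and the call was lost without any one of the 3 control libraries (edgeR, adjusted p between 0.114 and 0.145). It was also lost when only total counts scaled the libraries (edgeR, adjusted p = 0.0727) and with only the groups compared (0.0583). With the combination IL6ST stood at 96.7, 98.2 and 64.8 CPM, and its difference from control of 0.35 missed the threshold (edgeR, adjusted p = 0.0556). Without combination replicate 3, the lowest of the group, it passed at 0.52 (edgeR, adjusted p = 0.00244), and it passed on all libraries under the filter of 1 CPM (0.0326) and with only the groups compared (0.0424).

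The chemokine CXCL8 was the member with the highest level per length in every group. It stood at 166, 166 and 151 CPM in control and at 599, 588 and 531 CPM with lurbinectedin, with no overlap. With the combination it spread from 438 to 670 CPM, with the highest value in replicate 2, the library with 24.9% mitochondrial counts. CXCL8 rose by 1.83 with lurbinectedin (SE 0.133; edgeR, adjusted p = 2.76e-08) and by 1.82 with the combination (edgeR, adjusted p = 3.76e-08). With teriflunomide it was 144, 143 and 134 CPM, below every control library, but the difference of -0.20 was not called (edgeR, adjusted p = 0.361).

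CXCL1 and CXCL2 moved in the same direction as CXCL8 with smaller folds. CXCL1 was 60.4, 65.6 and 66.1 CPM in control, 125, 118 and 114 CPM with lurbinectedin and 156, 198 and 103 CPM with the combination. CXCL2 was 6.8, 7.49 and 7.74 CPM in control, 18.5, 19.2 and 19.3 CPM with lurbinectedin and 22.5, 29.1 and 19 CPM with the combination. For both genes combination replicate 2 was again the highest. The log2 rise with lurbinectedin was 0.89 for CXCL1 (edgeR, adjusted p = 0.000352) and 1.37 for CXCL2 (edgeR, adjusted p = 2.13e-06), and with the combination 1.25 and 1.68 (edgeR, adjusted p = 2.02e-05 and 3.5e-07). Combination minus lurbinectedin was 0.36 for CXCL1 (95% interval 0.02 to 0.69) and 0.30 for CXCL2 (0.02 to 0.59), and neither was called (edgeR, adjusted p = 0.329 and 0.335). With teriflunomide CXCL1 differed by -0.24 and CXCL2 by -0.13, not called (edgeR, adjusted p = 0.401 and 0.639).

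CSF1 rose by similar amounts in both groups with lurbinectedin. CSF1 stood at 28.2, 26.7 and 28.8 CPM in control, 77.5, 73.4 and 81.9 CPM with lurbinectedin and 70.6, 80.2 and 69.2 CPM with the combination. The log2 rise was 1.47 (SE 0.116; edgeR, adjusted p = 5.41e-08) and 1.39 (SE 0.115; edgeR, adjusted p = 1.18e-07). With teriflunomide CSF1 was 33.7, 34.9 and 27.4 CPM, a difference of 0.20 that was not called (edgeR, adjusted p = 0.3). Its receptor CSF1R did not pass the expression filter.

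Levels between genes were compared as RPKM, CPM per kilobase of exonic length. In control the order was CXCL8 at 71.9 RPKM, CXCL1 at 47.0, IL6ST at 6.73, CSF1 at 5.33, CXCL2 at 5.25, LIFR at 3.48, IL11 at 2.47, CLCF1 at 1.97, LIF at 0.218 and IL6 at 0.0162. Only CSF1 and CXCL2 overlapped across control libraries. With teriflunomide CSF1 overlapped IL11, and CXCL2, IL11 and LIFR overlapped one another, at 4.81, 4.79 and 4.62 RPKM. With lurbinectedin the order became CXCL8 at 256, CXCL1 at 87.3, IL11 at 35.0, CSF1 at 14.8, CXCL2 at 13.6, LIF at 7.14, IL6ST at 6.68, CLCF1 at 4.36, LIFR at 1.51 and IL6 at 0.424. LIF and IL6ST overlapped there. IL11 thus moved from place 7 to place 3 and LIF from place 9 to place 6. With the combination IL6ST at 8.56 and LIF at 7.12 RPKM overlapped, as did CXCL2 at 16.8 and CSF1 at 14.0, and CLCF1 at 5.58 overlapped IL6ST.

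Other genes of these pathways were read as lists, counted by the same test. Over all genes, 36.0% were called higher and 35.7% lower with lurbinectedin, 34.1% and 34.4% with the combination, and 3.88% and 2.13% with teriflunomide. Of the 9 interleukin-6 family ligands other than LIF, 7 passed the expression filter, IL6 among them only through libraries with lurbinectedin. Of the other 6, 4 rose with lurbinectedin and none fell. These include the members IL11 and CLCF1, and of the 4 non-members 2 rose, numbers too small to set the list apart from other genes. With teriflunomide IL11 and CTF1 rose (3 ligands without teriflunomide replicate 3). CTF1, cardiotrophin 1, went from 1.76 ± 0.135 CPM in control to 2.77 ± 0.135 with teriflunomide (edgeR, adjusted p = 0.0285) and to 3.18 ± 0.351 with lurbinectedin (edgeR, adjusted p = 0.000268). EBI3, a subunit shared by IL27 and IL35, went from 0.308 ± 0.151 to 2.29 ± 0.404 CPM with lurbinectedin (edgeR, adjusted p = 4.08e-05).

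Among the 5 tested receptor chains, 3 fell with lurbinectedin (35.7% of all genes) and IL11RA rose (36.0% of all genes), numbers too small to set the list apart from other genes. The 5 include the members LIFR and IL6ST, and of the 3 non-members 2 fell and 1 rose. IL6R, the IL6-binding chain, stood at 9.81 ± 0.554 CPM in control and 3.4 ± 0.368 with lurbinectedin (log2 fold change -1.52; edgeR, adjusted p = 3.19e-06). IL11RA stood at 1.51 ± 0.0713 and 4.46 ± 0.547 CPM (1.56; edgeR, adjusted p = 3.29e-05). With the combination LIFR and IL6R fell and IL11RA rose. With teriflunomide IL6ST was the one chain called, and IL6R joined it without teriflunomide replicate 3.

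The signal carriers moved in both directions. Of 7 tested genes, which are JAK kinases, STAT factors and the phosphatase PTPN11, 5 fell and 2 rose with lurbinectedin. Over all genes 35.7% were called lower and 36.0% higher, and 7 genes are too few to set the list apart. The median of the list was -1.26. JAK2 went from 9.73 ± 0.296 CPM to 0.873 ± 0.315 (-3.45; edgeR, adjusted p = 8.62e-09) and JAK1 from 94.3 ± 3.48 to 24.4 ± 2.06 (-1.95; edgeR, adjusted p = 1.12e-08). STAT3, the main transcription factor downstream of gp130, rose from 44.8 ± 0.408 CPM to 67.0 ± 8.04 with teriflunomide (edgeR, adjusted p = 0.00977) and 106 ± 8.34 with lurbinectedin (edgeR, adjusted p = 2.38e-07), and stood at 110 ± 9.04 under both drugs (edgeR, adjusted p = 1.93e-07).

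Of 14 feedback and target genes of gp130 and STAT3, 11 rose and 2 fell with lurbinectedin (36.0% and 35.7% of all genes), with a median of 0.95. With the combination 10 rose and 1 fell (34.1% and 34.4% of all genes), and 2 fell without combination replicate 2. JUNB, an AP-1 subunit, went from 14.8 ± 0.265 CPM to 107 ± 7.83 with lurbinectedin (2.86; edgeR, adjusted p = 4.31e-08), and MCL1, a survival factor, from 273 ± 5.52 to 897 ± 25.9 (1.72; edgeR, adjusted p = 1.33e-08). PIM1, a kinase gene induced by STAT3, was the one list gene called with teriflunomide and fell, from 4.58 ± 0.305 to 2.16 ± 0.604 CPM (-1.08; edgeR, adjusted p = 0.00638).

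Of the neutrophil-attracting chemokines, 6 of 7 tested rose with lurbinectedin (36.0% of all genes), with a median of 1.37. With the combination 7 of 7 rose (34.1% of all genes), and 6 without combination replicate 2. These include the members CXCL8, CXCL1 and CXCL2, and of the 4 others 3 rose with lurbinectedin. Among the receptors, CXCR1 and ACKR1 did not pass the expression filter, and CXCR2 passed it only through libraries with lurbinectedin and is not counted. CXCL5 rose from 264 ± 18.7 CPM to 437 ± 30.7 with teriflunomide (edgeR, adjusted p = 0.0208) and 716 ± 42 with lurbinectedin (edgeR, adjusted p = 2.5e-06). PPBP, another ligand of CXCR2, rose with teriflunomide from 3.5 ± 0.37 to 6.5 ± 0.941 CPM (edgeR, adjusted p = 0.0122). CXCL3 went from 19.8 ± 0.629 to 59.7 ± 6.73 CPM with lurbinectedin (1.60; edgeR, adjusted p = 1.87e-06). Of the 9 other chemokines 2 passed the expression filter, and neither was called against control with all libraries, although CX3CL1 was called with teriflunomide once its replicate 3 was left out. Of 8 colony-stimulating factors and receptors, CSF1 and CSF3R passed the filter, and CSF1 was called with lurbinectedin.

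Of 10 early inflammatory cytokines 5 passed the filter, but IL1B passed only through libraries with lurbinectedin, and IL33 and TNFSF10 only through libraries without it. The other 2, GDF15 and TGFB1, rose with lurbinectedin (36.0% of all genes). GDF15, a stress-induced cytokine, stood at 3.12 ± 0.0427 CPM in control, 5.53 ± 2.03 with teriflunomide (edgeR, adjusted p = 0.0435), 62.7 ± 3.99 with lurbinectedin (edgeR, adjusted p = 1.32e-09) and 63.0 ± 8.56 under both drugs (edgeR, adjusted p = 1.66e-09). IL1B had 3 counts in control and 49 with lurbinectedin, a ratio of 20.7 (95% exact interval 6.66 to 104). The filter favoured that difference in advance, and the interval covers counting error only, so it is no test. Of 12 NF-kB feedback and target genes 11 were matched and 10 tested. With lurbinectedin 7 rose and 3 fell (36.0% and 35.7% of all genes), with a median of 1.97. TNFAIP3, which encodes the NF-kB inhibitor A20, went from 1.56 ± 0.12 to 12.5 ± 1.19 CPM (7.98-fold; edgeR, adjusted p = 1.81e-09). ICAM1, an adhesion molecule, was the one gene of this list called with teriflunomide, from 4.68 ± 0.402 to 8.81 ± 0.698 CPM (0.91; edgeR, adjusted p = 0.00144).

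Of the regulators of cytokine mRNA decay, 5 of 10 were higher and 3 lower with lurbinectedin, close to the 36.0% and 35.7% of all genes, with a median of 0.30. ZFP36, which binds AU-rich stretches and promotes decay, went from 3.97 ± 0.43 to 13.6 ± 0.726 CPM (1.78; edgeR, adjusted p = 4.83e-08). CNOT1, the scaffold of the deadenylase complex, went from 673 ± 20.9 to 300 ± 22.9 CPM (-1.17; edgeR, adjusted p = 5.97e-07). ZFP36L1 rose with the combination from 110 ± 2.22 to 347 ± 92.6 CPM (1.66; edgeR, adjusted p = 5.95e-07). None of the 10 was called with teriflunomide (edgeR), with or without its replicate 3.

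**Figure D3:**
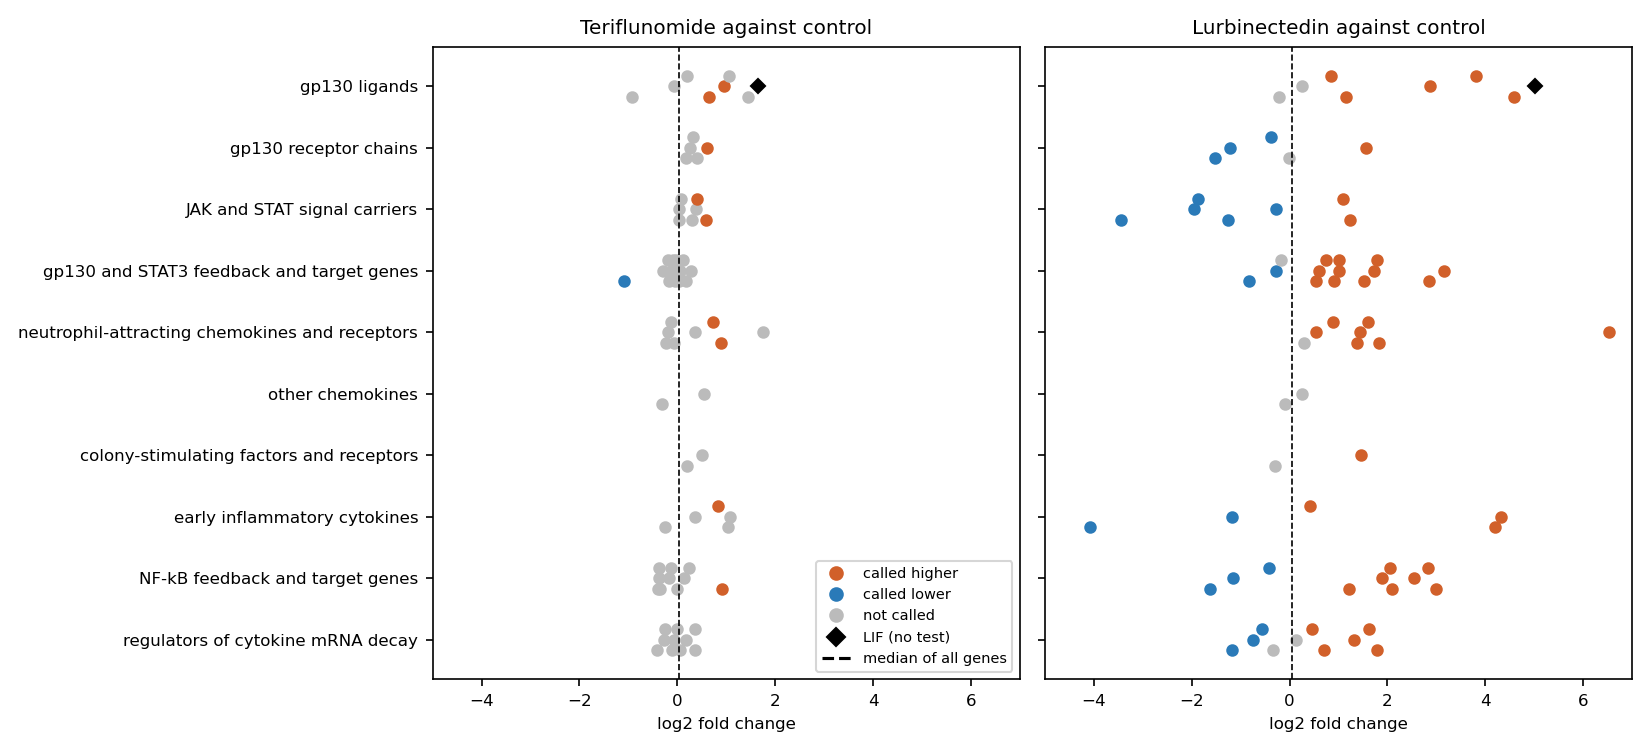
log2 fold change (horizontal axis) of each tested gene in 10 gene lists, with teriflunomide (left) and lurbinectedin (right) against control; colours give the call, the diamond is LIF, which was not tested, and the dashed line is the median of all 16683 genes. With teriflunomide most points lie near the line, and with lurbinectedin the list of JAK and STAT signal carriers, PTPN11 included, has a median of -1.26 and the NF-kB list one of 1.97. In the right panel IL6, CXCR2, IL1B, IL33 and TNFSF10 also carry call colours. Their differences were favoured in advance by the expression filter, so they are not counted as calls in the text.

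The genes whose pattern was nearest to that of LIF were ranked by the root mean square difference of log2 CPM, each gene centred on its control mean, over the 12 libraries and 11106 candidates. The nearest were NECTIN4 at 0.27, GRHL3 at 0.30, CDKN1A at 0.43, GADD45A at 0.44 and ACER2 at 0.45. CDKN1A, the cell cycle inhibitor p21, stood at 22.8 CPM in control, 43.7 with teriflunomide, 620 with lurbinectedin and 574 under both drugs. NECTIN4, an adhesion protein, stood at 2.42, 7.4, 73.1 and 72.9 CPM in the same order, and GRHL3, a transcription factor, at 0.16, 0.653, 6.69 and 6.81 CPM. GADD45A stood at 8.42, 21.5, 280 and 265 CPM and ACER2 at 2.34, 6.89, 61.7 and 59.3 CPM. Among the members IL11 was nearest, at 0.89 and rank 36, and CXCL8 lay at 2.41 and rank 482. IL6, too low to be a candidate, lay at 1.47.

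**Figure D4:**
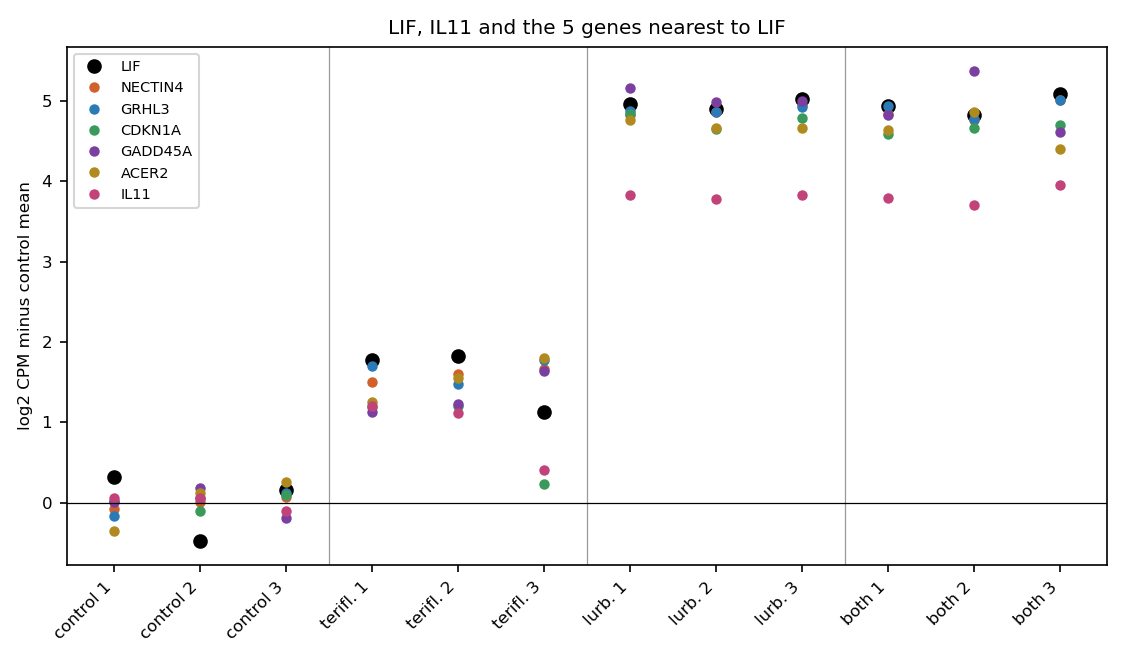
log2 CPM minus the gene's control mean (vertical axis) in each of the 12 libraries for LIF, the 5 genes nearest to it and IL11. In the libraries with lurbinectedin LIF and its 5 nearest genes lie above IL11, whose log2 fold change with lurbinectedin was 3.82 where that of LIF was 5.02.

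The members also differed in genomic span, along which the response to lurbinectedin varied over all genes. Nuclear genes were split by span into 5 classes of equal size. In the class with the shortest spans the median log2 fold change with lurbinectedin was 0.69, and in that with the longest it was -1.86. CXCL8, CXCL1 and CXCL2 span 3.18, 1.92 and 2.16 kb and lie in the shortest class. LIF, IL6, IL11 and CLCF1 span 6.31, 6.12, 6.08 and 10.01 kb and lie in class 2, whose median was 0.62. The change of LIF exceeded that of 99.2% of that class, that of IL6 98.8%, of IL11 98% and of CLCF1 72%. The places of LIF and IL6 were favoured in advance, LIF by its selection and IL6 by the expression filter. CXCL8 exceeded 81.8% of the shortest class, CXCL2 73.3% and CXCL1 57.4%. CSF1, at 20.8 kb, exceeded 90.7% of class 3. LIFR, at 134 kb, fell by 1.21 where its class had a median of -1.86, and 67.6% of that class lay below it. IL6ST, at 59.9 kb, lay above 64.3% of class 4, whose median was -0.36. The part of span in these changes, and in those of the gene lists, was not tested.

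**Figure D5:**
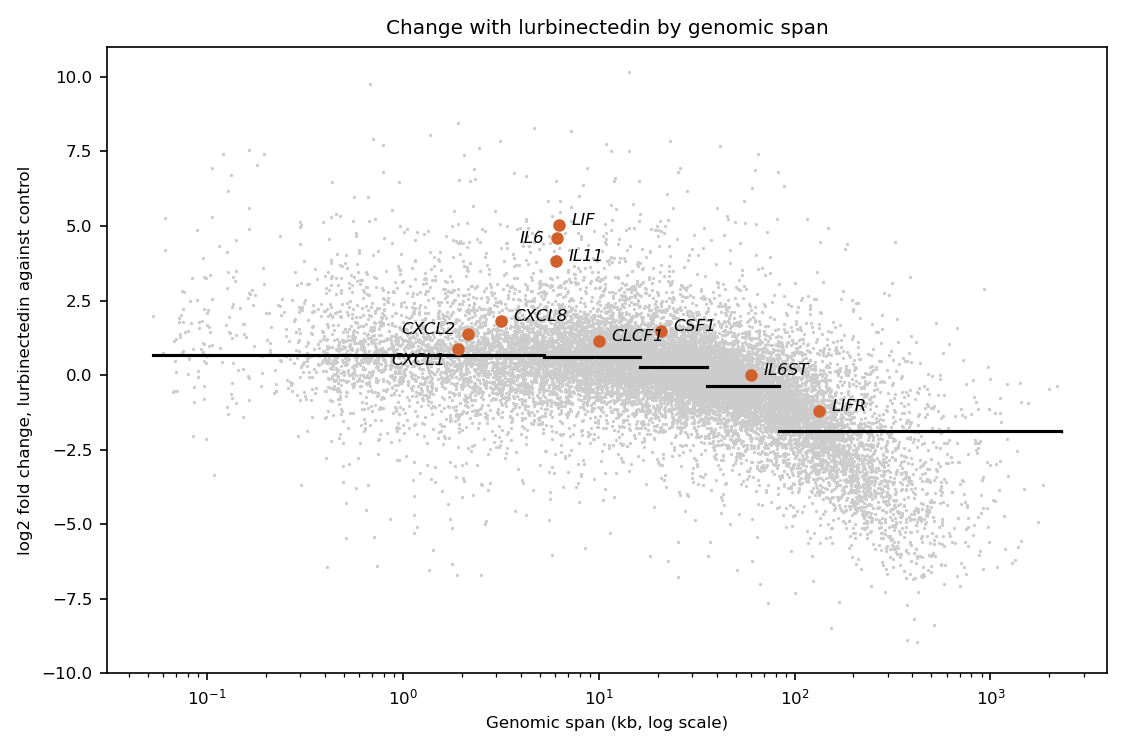
log2 fold change with lurbinectedin against control (vertical axis) against genomic span in kb (horizontal axis, log scale) for the tested nuclear genes (grey), with the 10 members in orange and black lines at the median of each span class. LIF, IL6 and IL11 stand far above the median of 0.62 of their class, and LIFR, at -1.21, lies above the median of -1.86 of the longest. The height of LIF and IL6 was favoured in advance, by the selection of LIF and by the expression filter.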

How the data were processed

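RNA was measured in 12 libraries of 4 treatment groups, 3 each. Per the labels' protocols, the RNeasy Plus Mini kit served for extraction and the KAPA mRNA HyperPrep kit for the libraries. The authors deposited unnormalized read counts for each gene. The submitters' processing notes name fastp 0.23.2, STAR 2.7.9, Subread, featureCounts and hg38, with no settings. Identifiers were matched to symbols (99.8% of 60649). Spans were identical to GENCODE 29 for all 37318 identifiers of the same version, but no member shares its version with that release.

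Counts were tested with edgeR 4.0.16 in R 4.3.3 (filterByExpr, TMM, robust quasi-likelihood, 16683 genes tested, Benjamini-Hochberg within each of 6 contrasts, biological coefficient of variation 14.5%). The script was tested on simulated data. CPM and RPKM use TMM-scaled library sizes. The 95% intervals of log2 fold changes are a normal approximation from the SE and are narrower than the edgeR test implies. The members, lists and alternatives were chosen with earlier results of these data known. Tests of LIF are not printed. Named genes are the 10 members, from each list at most 2 non-members per contrast against control with the smallest adjusted p, and the 5 genes nearest to LIF (at least 5 CPM in some group). A few genes named beside counts were chosen after their values were seen. Alternatives were other scalings, filters, a replicate block, only the groups compared, DESeq2 1.42.0, an adjusted p under 0.01 and each library left out; list counts without 2 libraries were added after seeing the data. Total counts of 23206414 to 33222162 per library set the precision, and members with few counts (IL6) are given with 95% exact intervals. One listed gene had no symbol match, and the values of some listed genes are not reported here.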

Additional observations from a re-analysis of the deposited data

How the results depend on the processing

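Of the log2 fold changes of the 9 members other than LIF under the alternatives, 722 kept their call or stayed uncalled, 7 gained a call, 9 lost one and none called in both settings changed sign. The number of other members called with teriflunomide was 2, and it was 0 with library size as the only scaling, 0 with only the groups compared, and 1 (IL11) at an adjusted p under 0.01. Leaving out each library in turn gave 0 to 2, with 1 without control replicate 1, 1 without control replicate 2 and 0 without control replicate 3. The interaction called 0 members, and 1 (IL11) without the expression filter, with DESeq2 and without teriflunomide replicate 3, so that the range over left-out libraries was 0 to 1. With the replicate number as a block, teriflunomide called 1 member (IL11, and no longer IL6ST). Among the 8 members left without IL6, the block changed no call with lurbinectedin or with the combination against control or teriflunomide. Between the combination and lurbinectedin, and for the interaction, the block called 0 members. The numbers do not pair the samples: of 18 pairs of libraries with the same number, correlations ran from -0.40 to 0.14. Library size as the only scaling moved the share of higher calls with lurbinectedin from 50.2% to 39.2% and the median of all genes to -0.18, with every called member keeping its direction. The cause of these differences was not tested. IL6 could not be given under the filter of 1 CPM. Its log2 fold change with lurbinectedin, 4.58, became 7.65 without control replicate 1, the one control library with IL6 counts. The lowest counts limit IL6 and, in control, LIF.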
